A study of Saccharomyces cerevisiae with 3 samples.

Results

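The ATG genes encode the proteins of autophagy, the process by which a cell wraps cytoplasm or chosen cargo in a double membrane and delivers it to the vacuole, the degradative compartment of yeast. They were taken as all genes of the array whose symbol in the platform annotation is ATG followed by a number. This gave 36 of the 5539 named genes, each with 2 spots on every array. Core proteins build the autophagosome, and selective receptors tie a chosen cargo to Atg8, the ubiquitin-like protein that coats the growing membrane. Budding yeast also runs the Cvt pathway in growing cells, which uses the same machinery to carry a few hydrolases to the vacuole.

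The transcripts came from wild-type Saccharomyces cerevisiae, budding yeast, exposed for 1 h to 0.2 mM arsenite (trivalent arsenic), and from untreated wild-type cells. Each of 3 two-colour arrays held both RNAs and gives 1 ratio of treated over untreated cells per spot. The dye of the treated RNA was Cy5 on the arrays of replicates 1 and 2, and it was Cy3 for replicate 3. The labels give no strain background, mating type or medium. Separate cultures are not mentioned in them, so the p-values below measure the spread between these arrays, which may be technical. RNA came from whole cultures, so a change in every cell and a larger change in some cells cannot be told apart.

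Replicate 3 as deposited correlated negatively over all spots with replicate 1 (r = -0.782) and replicate 2 (r = -0.613), and its sign was turned for the exchanged dyes. After turning, the median over genes was -0.10, 0.52 and -0.14 on replicates 1, 2 and 3, and each array was centred on that median. A value of 0 below therefore means that a gene moved like the middle gene of its array. The ratio was taken as Cy5 over Cy3, which is likely but not stated, and every sign would be opposite if it were the reverse. Nor do the sources name the base of the logarithm, which was read as 2. With a natural logarithm all log2 ratios would lie farther from 0 and all folds farther from 1. The arrays give ratios and no signal levels, so a gene's abundance and its signal over background are unknown here.

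The ATG genes as a group lay on the side of higher transcript in arsenite-treated cells. Of the 36, 11 rose at a limma adjusted p below 0.05, where 14.5% of all genes rose. None fell, against 18.1% of all genes; by the unadjusted p, 1 member was lower at the same threshold (ATG11), and none of the others was. The mean ratio was above 0 for 33 members (91.7%) and for 50.5% of all genes. On all 3 arrays the ratio was above 0 for 20 members (55.6%), where 29.2% of all genes had this, and below 0 for 2 members, ATG10 and ATG11, where 29.7% of all genes had this.

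The shift was modest in size. The median log2 ratio over the ATG genes was 0.28, against 0.0051 over all genes. A rise of at least 2-fold was reached by 5 members, ATG8, ATG19, ATG29, ATG41 and ATG1, and by 5.29% of all genes. The ATG medians were 0.18, 0.42 and 0.51 on replicates 1, 2 and 3, so each array placed the group above its own middle. The count of members that rose was 5 (13.9%) without replicate 1, where 7.44% of all genes rose. It was 12 (33.3%) without replicate 2, where 17.0% of all genes rose, and 11 without replicate 3, where 15.3% did. Without replicate 1 the fit gave every gene the same standard error of 0.319, where members had 0.177 to 0.255 with all arrays. Without replicate 3 every gene likewise had the same standard error, 0.234. A p-value from these fits therefore does not measure a gene's own spread between arrays.

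**Figure D1:**
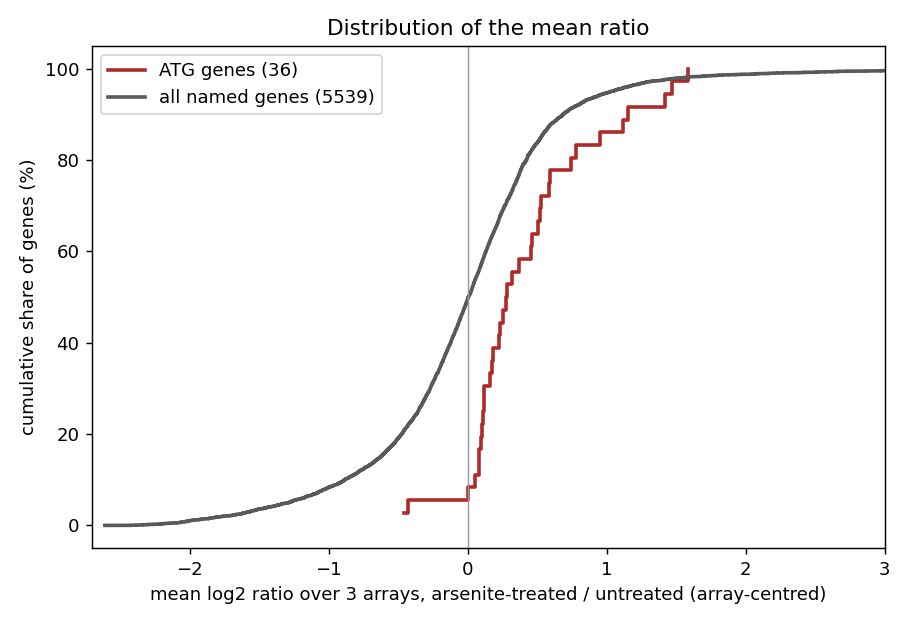
The cumulative share of genes (y axis, %) is drawn against the mean log2 ratio of arsenite-treated over untreated cells (x axis, array-centred, mean of 3 arrays) for the 36 ATG genes (red) and all 5539 named genes (grey). The red line lies to the right of the grey one over most of its course, with 33 members above 0, and it ends at 1.58.

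The Atg1 kinase complex starts autophagy. In starved cells it is built from the kinase Atg1, its regulator Atg13 and a scaffold of Atg17, Atg29 and Atg31. Of its 5 transcripts 2 rose, where 14.5% of all genes did. ATG29 had log2 ratios of 1.91, 0.87 and 1.47 on replicates 1, 2 and 3, a mean of 1.42 ± 0.53 (SD, n = 3), which is 2.67-fold (adjusted p = 0.000209). ATG1 had 1.27, 1.27 and 0.80, a mean of 1.12 ± 0.27 (2.17-fold, adjusted p = 0.000491). All arrays put both genes above 0.

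The scaffold partners of Atg29 had smaller ratios that crossed 0. ATG31 had 0.23, 0.43 and -0.12 (mean 0.18, 95% interval -0.23 to 0.58) and ATG17 had 0.014, 0.59 and -0.27 (mean 0.11, interval -0.32 to 0.55). ATG13 had 0.15, -0.11 and 0.64 (mean 0.23 ± 0.38). Set against ATG31 on the same array, ATG29 was higher by 1.68, 0.44 and 1.59, a mean difference of 1.24 ± 0.70 in log2 ratio. ATG29 exceeded ATG17 by 1.30 ± 0.90, and ATG1 exceeded ATG13 by 0.89 ± 0.64, each on all 3 arrays. With 3 arrays an exact two-sided sign test of such a difference cannot go below p = 0.25.

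The PI3-kinase complex I puts the lipid signal on the membrane to which later proteins bind. ATG14, the subunit that directs this kinase to autophagy, rose 1.50-fold, with 0.38, 0.76 and 0.62 on the arrays (mean 0.59 ± 0.19, adjusted p = 0.0253). This was among the smallest rises that passed. It was lost with replicate 1 left out (adjusted p = 0.129) and with replicate 2 left out (adjusted p = 0.0518). ATG38, which links the subunits of the complex, had 0.52, 0.33 and 0.12 (mean 0.32 ± 0.20, adjusted p = 0.197). VPS30, which RefSeq lists with the synonym ATG6, had 0.23, 0.12 and -0.088 (mean 0.090 ± 0.16).

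Atg9 is the membrane protein of the vesicles that seed the autophagosome, and Atg2 with Atg18 feeds lipid into it. None of these 3 genes passed in either direction, by limma or at an unadjusted p of 0.05. ATG9 had 0.21, 0.24 and 0.37 (mean 0.28 ± 0.085, interval -0.11 to 0.66). ATG2 had 0.069, 0.49 and 0.13 (mean 0.23 ± 0.23). ATG18 had 0.052, 0.11 and -0.17, and its mean lay at the middle of all genes, with a 95% interval of -0.39 to 0.39.

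Of the 8 genes of the Atg8 and Atg12 conjugation systems, 3 rose, where 14.5% of all genes did. ATG8 had the largest mean rise of the 36, with 1.88, 0.67 and 2.20 on replicates 1, 2 and 3, a mean of 1.58 ± 0.81 (3.00-fold, adjusted p = 0.000370). Replicate 2 was clearly lower than the other arrays, and ATG8 had the largest SD of all members.

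ATG16, which holds the Atg12-Atg5 conjugate on the membrane, was far more even between arrays, at 0.80, 0.87 and 0.68 (mean 0.78 ± 0.096, 1.72-fold, adjusted p = 0.00422). Its spots differed by up to 0.73 on an array, the largest such gap of the members. ATG3, the E2-like enzyme that attaches Atg8 to lipid, had 0.55, 0.65 and 0.57 (mean 0.59 ± 0.055, 1.51-fold, adjusted p = 0.0209), the smallest SD among the members. With replicate 1 left out neither passed (adjusted p = 0.0773 for ATG16 and 0.195 for ATG3), and their means were then 0.77 and 0.61. ATG3 was also lost with the last spot only (adjusted p = 0.0641), and its spots differed by up to 0.48.

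The enzymes on either side of Atg3 had smaller ratios. ATG4, the protease that trims and recycles Atg8, had 0.31, 0.50 and 0.29 (mean 0.37 ± 0.11, adjusted p = 0.135). ATG7, the E1-like enzyme shared by both systems, had -0.29, 0.91 and 0.14 (mean 0.25 ± 0.60), so its arrays disagreed in sign. ATG8 minus ATG7 was 2.17, -0.24 and 2.06 on the 3 arrays, a mean of 1.33 ± 1.36, with both signs present. Of the conjugate partners, ATG5 had a mean of 0.083 ± 0.12, and ATG12 had -0.0065, -0.37 and 0.66 (mean 0.097 ± 0.52), with arrays of both signs. ATG16 exceeded ATG5 by 0.69, 0.91 and 0.49 on the 3 arrays, a mean of 0.70 ± 0.21.

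ATG10, the E2-like enzyme for Atg12, had the lowest mean of the 36, with -0.19, -0.064 and -1.11 (mean -0.46 ± 0.57, adjusted p = 0.134). Replicate 3 set most of that value. Without replicate 2 ATG10 was lower at an adjusted p of 0.0257 (mean -0.65). Without replicate 3 its mean was -0.13 (adjusted p = 0.712). ATG3 exceeded ATG10 by 1.05 ± 0.55, with this sign on all arrays.

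**Figure D2:**
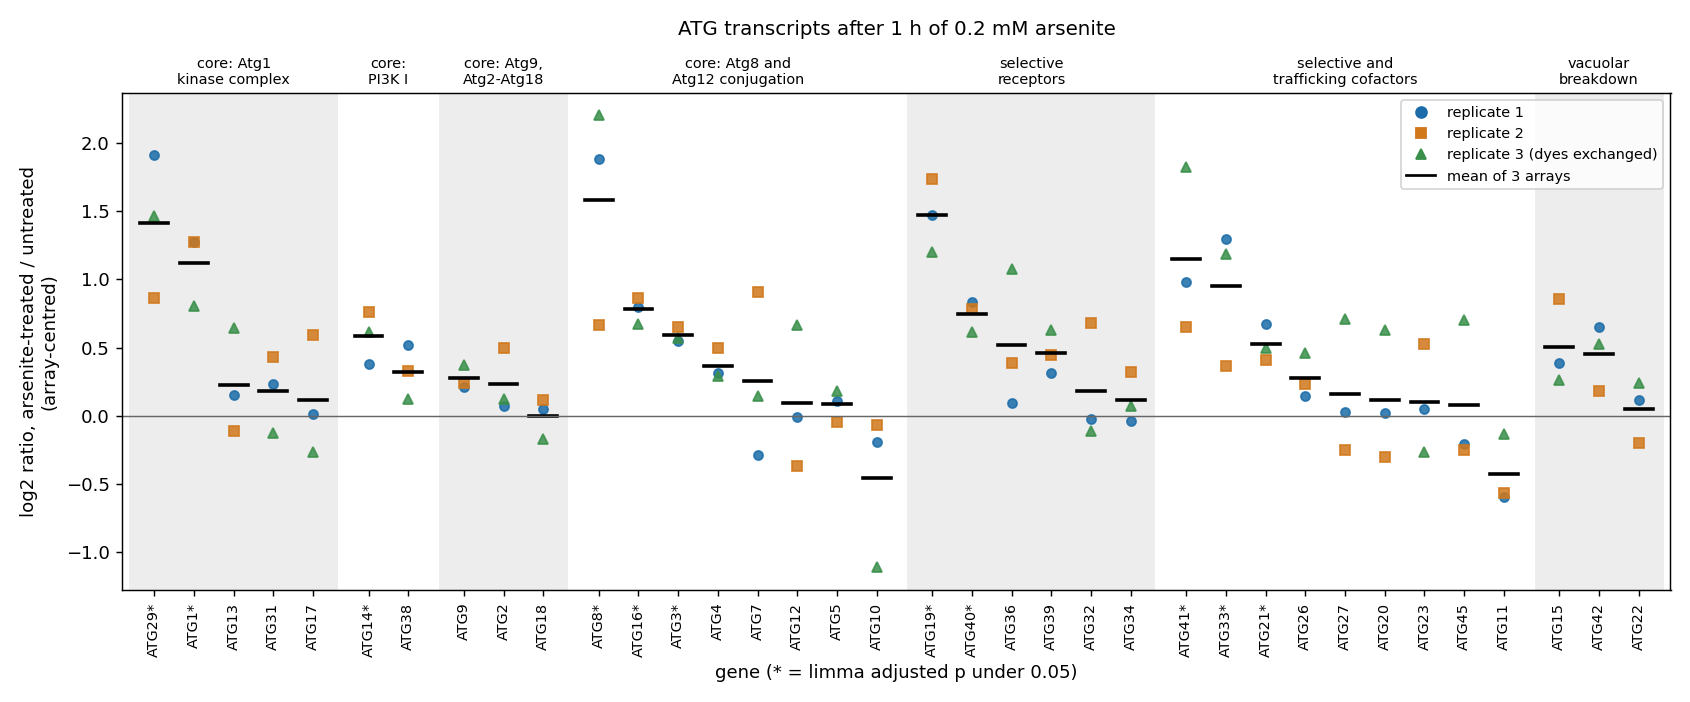
The log2 ratio of arsenite-treated over untreated cells (y axis, array-centred) is shown for each of the 36 ATG genes (x axis) by role, with 1 point per array and a black bar at the mean; asterisks mark an adjusted p below 0.05. ATG29, ATG8, ATG19 and ATG41 stand highest in their groups, and ATG10 and ATG11 have all 3 points below 0.

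Of the 6 selective receptors, 2 rose, where 14.5% of all genes did. All 6 had a mean above 0, where 50.5% of all genes had this. ATG19, the receptor that carries the hydrolases of the Cvt pathway, had 1.47, 1.74 and 1.20 on the arrays, a mean of 1.47 ± 0.27 (2.77-fold, adjusted p = 5.30e-05, the smallest of the 36). ATG40, a receptor for the endoplasmic reticulum, had 0.84, 0.78 and 0.62 (mean 0.75 ± 0.12, 1.68-fold, adjusted p = 0.00585). ATG19 passed with any array left out, and ATG40 passed unless replicate 1 was left out (adjusted p = 0.121, mean 0.70). ATG8 minus ATG19 was 0.41, -1.07 and 1.00 on replicates 1, 2 and 3, a mean of 0.11 ± 1.07, with both signs present.

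ATG34 encodes a receptor related to Atg19 that carries alpha-mannosidase in starved cells, and the genes lie next to each other on the same strand in the RefSeq gene order. Its ratios were -0.041, 0.32 and 0.068 (mean 0.12 ± 0.19, interval -0.28 to 0.51). ATG19 exceeded ATG34 by 1.51, 1.42 and 1.13, a mean of 1.35 ± 0.20, the most even of the differences between members given here. Related sequences can cross-hybridise, and the probe sequences were not analysed here.

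ATG36, the receptor for peroxisomes, had 0.092, 0.39 and 1.07 (mean 0.52 ± 0.50, adjusted p = 0.0769). It passed without replicate 2 (adjusted p = 0.0474), but not without replicate 1 (0.0995) or replicate 3 (0.457, mean 0.24). ATG39, a receptor for the nuclear envelope, had 0.31, 0.45 and 0.63 (mean 0.46 ± 0.16, adjusted p = 0.0653). ATG40 minus ATG39 was 0.52, 0.33 and -0.013 on replicates 1, 2 and 3, a mean of 0.28 ± 0.27, with both signs present. ATG32, the receptor for mitochondria, had -0.027, 0.68 and -0.11 (mean 0.18 ± 0.44), above 0 on replicate 2 only. CUE5, a receptor for ubiquitin-tagged aggregates that has no ATG symbol, rose 1.75-fold (0.73, 1.01 and 0.70, mean 0.81 ± 0.17, adjusted p = 0.00370).

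The gap between core machinery and receptors was small and changed with the settings. In the core 6 of 18 genes rose, and among the receptors 2 of 6 did, which is 33.3% in each. Of all genes 14.5% rose. The median log2 ratio over genes was 0.26 in the core and 0.49 among the receptors. Taken array by array, the core median was 0.22, 0.50 and 0.33 on replicates 1, 2 and 3, and the receptor median was 0.20, 0.57 and 0.62. The core minus receptor difference was 0.018, -0.068 and -0.29, a mean of -0.11 ± 0.16, with both signs present. It was -0.025 without replicate 3. With ATG45, described as a glycogen receptor and counted here among the cofactors, added to the receptors it was -0.039 ± 0.23. With CUE5 added (-0.19 ± 0.10), and with the first spot of each gene only (-0.19 ± 0.059), it was below 0 on all arrays. With the last spot only it was 0.23, -0.054 and -0.32, a mean of -0.048 ± 0.27. With centring on surrounding spots it was 0.13, 0.042 and -0.36. Values ran from -0.46 to 1.58 in the core and from 0.12 to 1.47 among the receptors, so the receptors lay inside the range of the core.

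**Figure D3:**
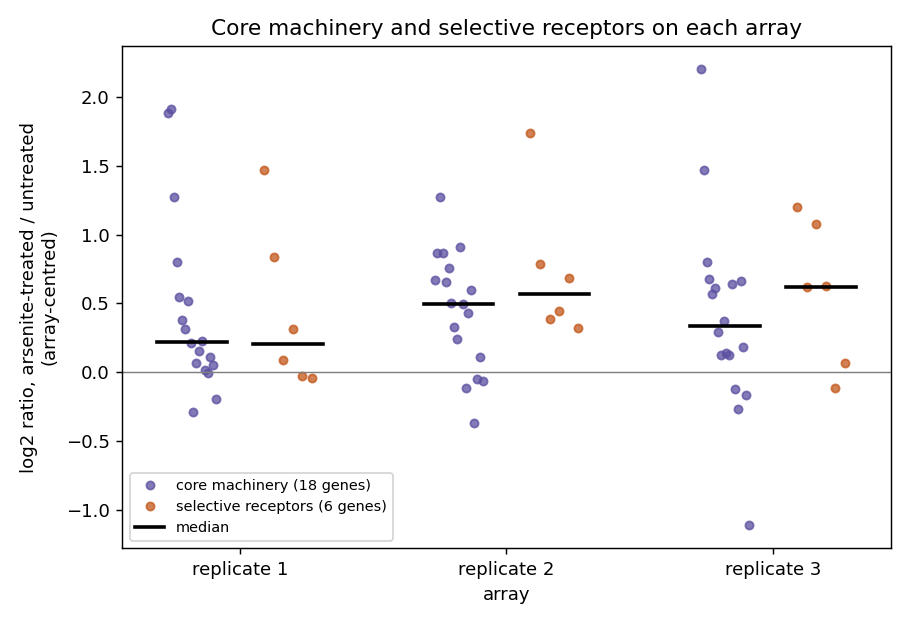
Each point is 1 gene's log2 ratio of arsenite-treated over untreated cells (y axis, array-centred) on 1 array (x axis), for the 18 core genes (purple, left) and the 6 receptors (orange, right), with black bars at the medians. The medians lie close together on replicates 1 and 2, and the receptor median is higher on replicate 3.

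The other 9 genes beyond the core, apart from those for breakdown, serve selective autophagy or the traffic of Atg9. Of these 9, 3 rose, where 14.5% of all genes did. ATG41, whose product works with Atg9, had 0.98, 0.65 and 1.83 (mean 1.15 ± 0.61, 2.22-fold, adjusted p = 0.00147). ATG33, a mitochondrial outer membrane protein of mitophagy, had 1.30, 0.36 and 1.19 (mean 0.95 ± 0.51, 1.93-fold, adjusted p = 0.00372; adjusted p = 0.0759 without replicate 1).

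ATG21, a lipid-binding protein related to Atg18, had 0.68, 0.41 and 0.49 (mean 0.53 ± 0.14, 1.44-fold, adjusted p = 0.0392). It had the highest adjusted p of the 11, and leaving out replicate 1 (adjusted p = 0.387) or replicate 3 (adjusted p = 0.0579) ended its call. SNX4, which RefSeq lists with the synonym ATG24 and which codes for a sorting nexin, rose 2.04-fold (1.00, 1.35 and 0.74, mean 1.03 ± 0.31, adjusted p = 0.000982). Its partner ATG20 had 0.024, -0.30 and 0.63 (mean 0.12 ± 0.47).

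ATG11, the scaffold that joins cargo-bound receptors to the Atg1 kinase, ran against most members, at -0.60, -0.56 and -0.13 (mean -0.43 ± 0.26, adjusted p = 0.0946). It was lower at an adjusted p of 0.0400 without replicate 3, but not without replicate 1 (0.533) or replicate 2 (0.168). The genes for Atg9 traffic ATG23 (mean 0.10 ± 0.40) and ATG27 (0.16 ± 0.50) and the sterol glucosyltransferase gene ATG26 (0.28 ± 0.16) did not pass, nor did ATG45 (0.081 ± 0.54), described as a glycogen receptor. ATG27, ATG20 and ATG45 each had 0.63 to 0.71 on the dye-exchanged replicate 3 and -0.30 to -0.25 on replicate 2. The core gene ATG12 had 0.66 and -0.37 on these arrays, and ATG13 had 0.64 and -0.11. Other members had the reverse signs, below 0 on replicate 3 and above 0 on replicate 2. These were ATG17 (-0.27 and 0.59), ATG23 (-0.27 and 0.52), ATG32 (-0.11 and 0.68), ATG31 (-0.12 and 0.43) and ATG18 (-0.17 and 0.11).

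Of the 3 genes for breakdown inside the vacuole, 2 were higher at an unadjusted p below 0.05, and none passed by limma's adjusted p. ATG15, the lipase that opens the delivered membrane, had 0.39, 0.86 and 0.26 (mean 0.50 ± 0.31, adjusted p = 0.0589). It passed without replicate 3 (adjusted p = 0.0262), but not without replicate 1 (0.251) or replicate 2 (0.201). ATG42, a carboxypeptidase, had 0.65, 0.18 and 0.52 (mean 0.45 ± 0.24, adjusted p = 0.0778). It passed without replicate 2 (0.0222), but not without replicate 1 (0.525) or replicate 3 (0.159). ATG22, an exporter of amino acids from the vacuole, had 0.12, -0.20 and 0.24 (mean 0.051 ± 0.23).

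Another 51 measured genes act before, beside or after the ATG proteins. Of these, 11 rose (21.6%) and 4 fell, where 14.5% of all genes rose and 18.1% fell. Their median log2 ratio was 0.16. The count that rose was 7 without replicate 1 and 17 without replicate 2, and the count that fell was 2 without replicate 1. By list, 3 of 4 genes for Cvt cargo and 2 of 3 for vacuolar proteases rose. The shares in the other lists ran from 0% to 28.6%. The cargo and protease lists supply 3 and 2 of the 11 genes that rose, so the 21.6% leans on them. They are small and are set apart here because their shares were the highest, so their counts are no independent evidence of a rise.

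Of the 4 genes for cargo of the Cvt pathway, 3 rose, where 14.5% of all genes did. APE1, the aminopeptidase that is the main cargo of Atg19, had 2.64, 2.50 and 2.83 on the arrays (mean 2.66 ± 0.17, 6.31-fold, adjusted p = 5.10e-07). Its mean lay farther from 0 than that of any ATG gene. AMS1, the alpha-mannosidase, rose 1.95-fold (0.87, 1.21 and 0.82, mean 0.97 ± 0.21, adjusted p = 0.00117). APE4, an aspartyl aminopeptidase, rose 1.64-fold (mean 0.72 ± 0.33, adjusted p = 0.0117; adjusted p = 0.223 without replicate 1).

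Among the 3 vacuolar proteases, PRB1, proteinase B, had 2.28, 2.24 and 2.10 (mean 2.21 ± 0.091, 4.61-fold, adjusted p = 1.98e-06). PEP4, proteinase A, which activates the others, had 0.90, 0.44 and 1.44 (mean 0.93 ± 0.50, 1.90-fold, adjusted p = 0.00407). PRC1, carboxypeptidase Y, had 0.47, 0.16 and 0.98 and did not pass (mean 0.54 ± 0.41, adjusted p = 0.0558).

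Upstream, TORC1 is the kinase complex that holds autophagy back in fed cells, and 1 of 10 genes of this list rose and 1 fell, against 14.5% and 18.1% of all genes. LST8, a TORC1 subunit, rose 1.63-fold (0.71, 0.76 and 0.62, adjusted p = 0.00821), and TAP42, a phosphatase regulator controlled by TORC1, fell (-0.89, -1.31 and -0.094, mean -0.77 ± 0.62, adjusted p = 0.0194). With replicate 1 left out both were lost (adjusted p = 0.125 for LST8 and 0.118 for TAP42), and TAP42 was also lost with replicate 2 left out (adjusted p = 0.0788). TOR1 itself had -0.039 ± 0.40 and TOR2 0.41 ± 0.41.

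Of 8 transcription regulators of ATG genes, 1 rose and 1 fell, shares near those of all genes (14.5% and 18.1%). GAT1, a GATA activator of nitrogen-regulated genes, had 1.01, 0.91 and 1.26 (mean 1.06 ± 0.18, 2.08-fold, adjusted p = 0.000574). GCN4, the activator of amino acid synthesis, whose protein is controlled at translation, fell on every array (-1.08, -1.09 and -1.27, mean -1.15 ± 0.11, adjusted p = 0.000267). UME6, a repressor of ATG8, had -0.50, 0.30 and -0.98 (mean -0.39 ± 0.64, adjusted p = 0.213).

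Of the 4 PI3-kinase genes, 0 rose and 1 fell, against 14.5% and 18.1% of all genes. VPS15, the kinase subunit that regulates Vps34, fell (-1.17, -1.87 and -0.20, mean -1.08 ± 0.84, adjusted p = 0.00610), whereas VPS34, the catalytic subunit, had a mean of 0.016 ± 0.27. Of 15 genes for tethering and fusion of the finished autophagosome, 2 rose (13.3%) and 1 fell, against 14.5% and 18.1% of all genes. The SNARE genes YKT6 (mean 0.95 ± 0.56, adjusted p = 0.00457) and VTI1 (0.65 ± 0.13, adjusted p = 0.0129) rose, and VPS16, of the HOPS tether, fell (-0.84 ± 0.41, adjusted p = 0.00542). All 3 calls were lost with replicate 1 left out, at an adjusted p of 0.0661 for YKT6, 0.130 for VTI1 and 0.0643 for VPS16. Of 7 selective factors without an ATG symbol, CUE5 and SNX4 rose (28.6%) and none fell, against 14.5% and 18.1% of all genes. At an unadjusted p of 0.05, 3 were higher, with FIS1 (mean 0.60 ± 0.83, limma adjusted p = 0.0966) as the third, and none was lower.

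**Figure D4:**
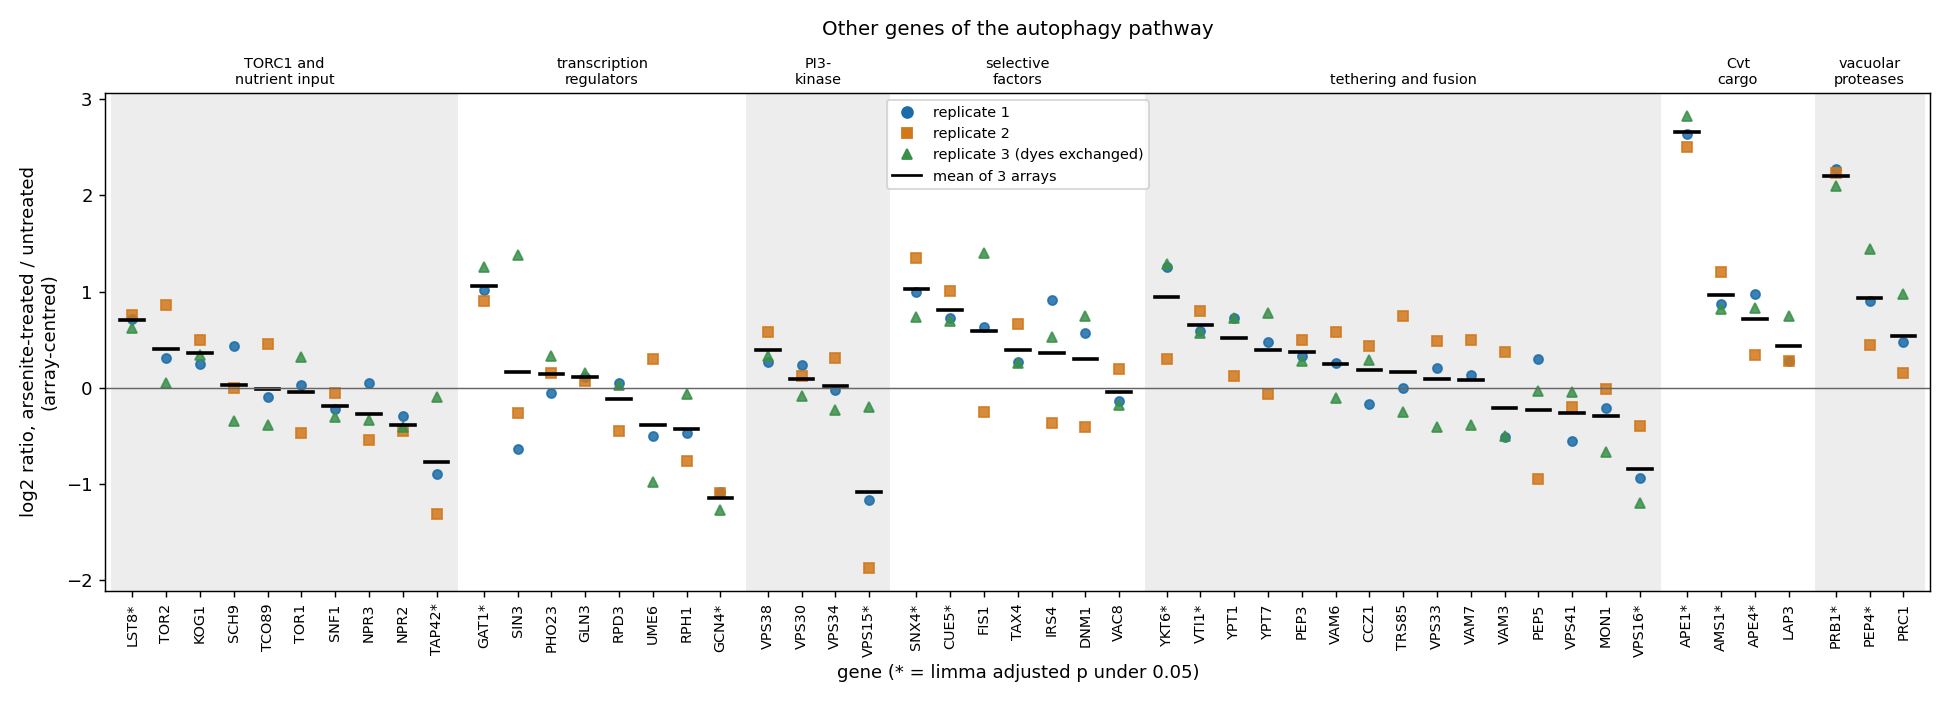
The log2 ratio of arsenite-treated over untreated cells (y axis, array-centred) is shown for 51 other genes of the pathway (x axis) by role, with 1 point per array and a black bar at the mean; asterisks mark an adjusted p below 0.05. APE1 and PRB1 stand above 2 on all arrays, and GCN4 lies near -1 with closely grouped points.

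The yeast genome is compact, and many genes share their upstream region with a gene read in the opposite direction. By the RefSeq gene order, 17 of the 36 ATG genes have a measured divergent neighbour of this kind. Of these 17, 5 rose, and none of the 5 neighbours did by limma's adjusted p, while 1, REV3, was higher at an unadjusted p of 0.0236. Among all 364 genes that rose and have such a neighbour, 24.2% had a neighbour that rose too. With only 5 neighbours, a count of 0 cannot be told apart from this share. ATG33 rose beside ILV5, an enzyme of branched-chain amino acid synthesis, which fell (-1.71, -2.07 and -1.36, mean -1.71 ± 0.35, adjusted p = 2.24e-05).

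The neighbours of the other 4 did not pass. REV3, a DNA polymerase subunit gene beside ATG29, had 0.46 ± 0.15 (adjusted p = 0.0660). CVM1, beside ATG16, had 0.10 ± 0.15, PDR5, a drug exporter gene beside ATG40, had -0.046 ± 0.49, and LRO1, an acyltransferase gene beside ATG3, had -0.30 ± 0.069. Beside members that did not pass, YBR138C next to ATG42 (-1.83 ± 0.40), RPL17B next to ATG27 (-1.72 ± 0.57), IMD3 next to ATG23 (-1.38 ± 0.14) and SES1 next to ATG31 (-1.08 ± 0.43) fell. Of all genes 18.1% fell. The remaining neighbours of such members did not pass, with means from -0.43 (SQS1, beside ATG4) to 0.36 (MMR1, beside ATG26).

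**Figure D5:**
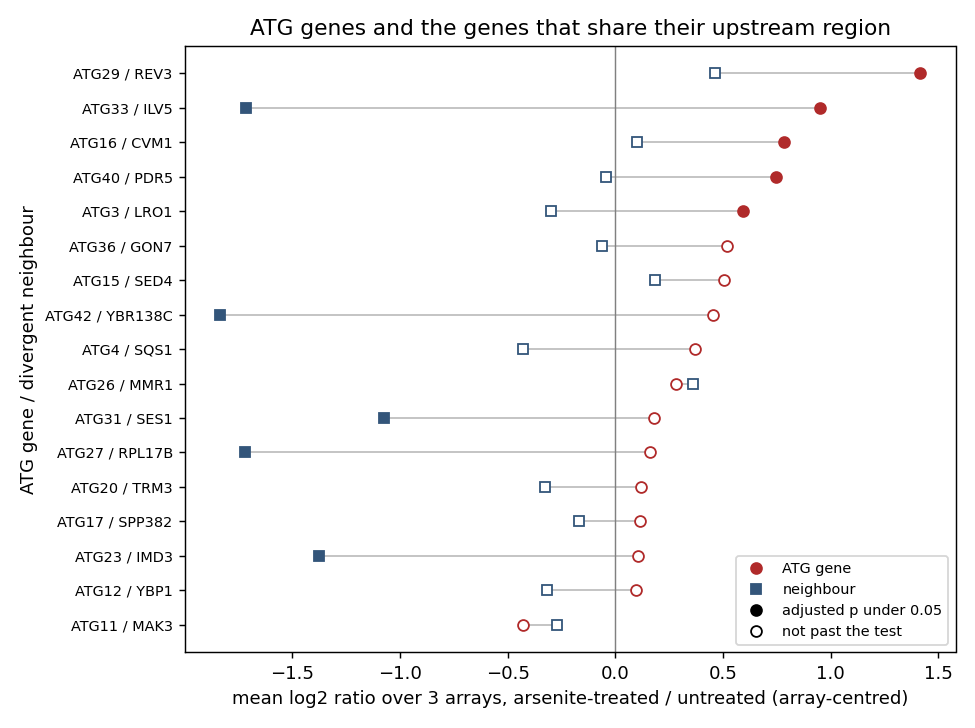
The mean log2 ratio over 3 arrays of arsenite-treated over untreated cells (x axis, array-centred) is shown for 17 ATG genes (red circles) and their divergent neighbours (blue squares), with a line joining each pair (y axis); filled symbols passed at an adjusted p of 0.05. The 5 filled circles have no filled square on the right of 0, and ATG33 and ILV5 are filled on opposite sides.

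Markers of other states that a yeast culture could hold were measured on the same arrays. Of 5 a-cell genes 3 fell and 0 rose, of 3 alpha-cell genes 1 rose and 1 fell, and of 6 meiosis genes 2 rose and 0 fell, where 14.5% of all genes rose and 18.1% fell. The zeros hold at an unadjusted p of 0.05 too. The meiotic kinase gene IME2 had 2.05, 2.46 and 1.41, and its activator gene IME1 had -0.030, 0.44 and -0.42. The part of such states in the ATG values was not tested.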

How the data were processed

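Transcript ratios were measured on 3 two-colour arrays, each comparing arsenite-treated with untreated wild-type yeast. The authors deposited 1 ratio per spot, taken here as log2; the sources used here do not give their scanner, background correction, normalization or logarithm base. The table holds 1 value for each of 13056 spots per array, with 0 missing, so all 36 members were tested and no filter on low values was applied. The correlation of duplicate spots was 0.940, 0.927 and 0.937 for replicates 1, 2 and 3, and the SD of 1 spot was 0.19, 0.22 and 0.20; the number of arrays limits the precision.

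In the platform annotation 11138 spots have 1 gene symbol, 0 have several and 1918 have none. All 36 ATG genes matched RefSeq (assembly R64), which was used for synonyms (PEP3, PEP5 and VAM6 stand for VPS18, VPS11 and VPS39) and for gene order, with strand read from the systematic name; coordinates are left out, as the build of the probes is unknown. Spots of a gene were averaged, replicate 3 was multiplied by -1, and each array was centred on its median over genes. Departure of the array mean from 0 was tested in limma 3.58.1 by lmFit with eBayes (R 4.3.3; prior degrees of freedom 10.8), two-sided, with Benjamini-Hochberg adjustment over 5539 genes and a threshold of 0.05. The fit was tested on simulated data. Tables and figures used Python 3.11.15, pandas 2.3.3 and matplotlib 3.10.9.

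The members, roles, lists and pairs were chosen with earlier results of these data known. All members are named, and of the other pathway lists up to 3 genes past the test in each direction, by size; further genes of those lists, the neighbours and the markers were named after their values were seen. Alternatives covered array offset and scale, quantile normalization, single spots, a dye term, robust eBayes, each array left out, and, chosen after seeing the data, centring on 201 surrounding spots and changes of membership. Alternatives for background and dim spots were not run, since the table holds no intensities.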

Additional observations from a re-analysis of the deposited data

How the results depend on the processing

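Among the 11 ATG genes that rose, ATG1, ATG8, ATG19, ATG29 and ATG41 passed under all 11 alternatives run per gene, and the others under 7 to 10 of them. Of the 36 members, 19 passed under no setting. The fits without centring (0.290), with a dye term (0.203), without replicate 1 (0.319) and without replicate 3 (0.234) gave every gene the same standard error. Passing in these fits reflects the size of the mean and not a gene's own spread between arrays. The count that rose was 8 with replicate 3 turned but no array centred, and all 8 were among the 11. It was 13 with a dye term, and 5 to 12 with an array left out. The count that fell was 0, but 1 with the first spot only, 1 with a dye term (ATG10 in each), 2 with centring on surrounding spots, and 0 to 1 with an array left out. For the other pathway genes the counts were 7 to 17 higher and 2 to 5 lower with an array left out. For all genes they were then 412 to 939 higher and 602 to 1071 lower, and 603 fell without centring. Of the 5 neighbours of ATG genes that rose, 0 rose in any setting. The mean core minus receptor difference stayed below 0 in every setting. It was -0.19 to -0.039 with other processing or membership and -0.18 to -0.025 with an array left out. The difference was below 0 on every array with the first spot only (-0.19 ± 0.059), with CUE5 added to the receptors (-0.19 ± 0.10), and with ATG17, ATG29, ATG31 and ATG38 left out of the core (-0.080 ± 0.065). In the other settings with all 3 arrays it was above 0 on replicate 1, up to 0.23 with the last spot only. Members near 0 changed sign, none past the test. ATG18 had 0.093 without centring, 0.00050 with the first and 0.0090 with the last spot. ATG20 had -0.056 and ATG45 had -0.13 with the last spot, and ATG22 had -0.0011 with centring on surrounding spots. With an array left out, values ranged from -0.073 to 0.52 for ATG7, -0.069 to 0.33 for ATG32, -0.11 to 0.37 for ATG27, -0.14 to 0.33 for ATG20, -0.13 to 0.30 for ATG17, -0.11 to 0.29 for ATG23, -0.19 to 0.33 for ATG12, -0.23 to 0.25 for ATG45, -0.042 to 0.18 for ATG22 and -0.058 to 0.083 for ATG18. The series has 1 group of arrays, each holding its own control, so treated and untreated RNA were compared within each array throughout. The causes of these changes were not tested.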
